A study of Mus musculus with 10 samples.

Results

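The regions described here are 2771 stretches of chromatin inside gene bodies whose accessibility was moderately higher in atrial cardiomyocyte nuclei of Tbx5G125R mice than of Control mice. They are 27.7% of the 10010 regions in the deposited table. A region was taken when the ratio of the authors' geometric means of raw counts, Tbx5G125R over Control, lay above 1 and below 3. It also had to overlap the span of a protein-coding gene while lying over 1 kb from the start and end of every such gene. Raw counts are not scaled for depth, so the ratio is not a fold change of accessibility. Accessibility was measured by ATAC-seq, which reads open chromatin from the places where a transposase can insert sequencing adapters. The Tbx5G125R group held 4 libraries from 4 mice labelled with the genotype Tbx5G125R, which the study describes as heterozygous for a missense substitution in the T-box factor Tbx5. The Control group held 6 libraries from 4 Control mice, with 2 libraries each for animals 1 and 3, which were summed. Mice of both groups were 8 to 12 weeks old, left and right atria of each mouse were pooled, and nuclei were sorted on PCM1, a protein found around the nucleus of cardiomyocytes. The allele was present in all cells of the body and not limited to the atrium.

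Most of a mammalian gene's span is intron, and much of the chromatin that opens there carries enhancers, short stretches to which transcription factors bind and which act on the start of the host gene or of a neighbour. Other open stretches inside a gene lie at transcription starts within its span. Such a start may serve a shorter transcript or be the main start of the gene. Tbx5 is a DNA-binding factor of the T-box family that works with Nkx2-5, Gata4 and Mef2 factors in the atria and the conduction system. Its loss or gain disturbs the rhythm of the heart.

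The regions were selected on the ratio between the genotypes, so every difference between them below is a description and not a test. Reads in the regions summed to between 428747 and 593208 in the Tbx5G125R animals, and between 148598 and 667827 in the Control animals. They made up 24.4% to 25.2% of the reads in the table in Tbx5G125R animals, and 23.2% to 24.1% in Control animals. The depth of whole libraries is unknown. Levels below are scaled counts, that is, read counts divided by a factor for each animal. The table gives no depth that is independent of its regions, so the factor between the genotypes was placed with the authors' deposited fold changes. If the median of all listed regions had been put at no difference instead, the median of the regions here would have been 0.10 on the log2 scale in place of 0.76. The table lists only regions that the authors called different, and most of them are higher on the authors' scale. The study also reports many more sites of similar accessibility, which the table leaves out. The table alone cannot tell which scale is right. The fold changes below are therefore relative to the authors' scale.

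Of the 2771 regions, 277 overlapped a transcription start listed in RefSeq, and the sequence before such starts can be shown. In 241 of these regions the nearest listed start was one of the host gene itself, lying inside its span, and in 36 it was that of a long noncoding gene. Which of a gene's starts is its main one was not examined. Among the gene lists used below, 20 regions in 20 genes overlapped 23 starts of the host gene, which lay between 1.63 and 483 kb into the span. Their log2 fold changes ran from 0.45 to 0.88. For 8 of them, in genes for transcription factors, ion channels, a phosphodiesterase, a histone deacetylase and myoglobin, the 120 bases before the start are given 5′ to 3′ on the strand of the gene, from RefSeq (GRCm38.p6, the build called mm10). Capitals mark the letters of a motif that was searched.

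Nkx2-5, chr17:26841566-26841685, minus strand: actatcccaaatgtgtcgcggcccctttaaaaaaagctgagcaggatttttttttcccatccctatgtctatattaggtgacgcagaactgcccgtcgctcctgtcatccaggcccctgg
Srf, chr17:46556163-46556282, minus strand: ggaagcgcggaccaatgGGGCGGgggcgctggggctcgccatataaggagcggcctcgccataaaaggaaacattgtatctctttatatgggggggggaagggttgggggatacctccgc
Mef2c, chr13:83523536-83523655, plus strand: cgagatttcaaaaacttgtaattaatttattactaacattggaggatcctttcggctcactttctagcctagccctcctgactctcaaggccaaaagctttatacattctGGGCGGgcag
Mb, chr15:77022788-77022907, minus strand: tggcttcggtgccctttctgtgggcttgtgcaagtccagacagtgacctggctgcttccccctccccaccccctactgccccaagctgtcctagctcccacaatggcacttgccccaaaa
Kcnh2, chr5:24329592-24329711, minus strand: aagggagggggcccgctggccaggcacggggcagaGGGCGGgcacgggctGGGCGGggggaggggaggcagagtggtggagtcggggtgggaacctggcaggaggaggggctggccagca
Kcnj3, chr2:55435850-55435969, plus strand: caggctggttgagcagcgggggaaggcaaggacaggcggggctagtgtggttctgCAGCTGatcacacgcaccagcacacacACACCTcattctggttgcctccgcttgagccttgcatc
Pde1c, chr6:56362811-56362930, minus strand: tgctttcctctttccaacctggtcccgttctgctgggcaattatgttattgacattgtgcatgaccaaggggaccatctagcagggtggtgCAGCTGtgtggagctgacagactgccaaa
Hdac4, chr1:92180342-92180461, minus strand: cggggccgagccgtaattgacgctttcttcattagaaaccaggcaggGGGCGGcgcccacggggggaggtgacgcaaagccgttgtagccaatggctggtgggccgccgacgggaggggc

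The motifs searched on both strands were AGGTGT for T-box factors, CTATTTATA or TAAAAATA for MEF2, AGATAA for GATA factors, GGAATG for TEAD factors, CAGCTG for E-box proteins and GGGCGG for KLF factors. Among the 8 sequences, the start in Kcnj3 carried the T-box letters on the opposite strand, as ACACCT, together with CAGCTG. The starts in Srf, Mef2c and Hdac4 carried GGGCGG 1 time each, and the start in Kcnh2 carried it 2 times. The start shown for Pde1c carried CAGCTG, and those in Nkx2-5 and Mb carried none of the searched letters within these 120 bases. Another listed start of Pde1c under the same region is not shown (chr6:56362393-56362512), and it carried the T-box letters AGGTGT.

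Over the 250 bases before each of the 333 listed starts under these regions, GGGCGG was found at 66.4%, against 75.7% of 2911 starts under moderately gained regions at gene ends and 32.7% of all 32851 listed starts. The T-box letters were found at 8.11% of the starts under these regions, against 7.73% at gene ends and 11.8% of all starts. The GATA letters were found at 3.30%, against 3.26% at gene ends and 9.99% of all starts. The MEF2 letters were found at 10 of the 333 starts under these regions, against 38 of 2911 (1.31%) at gene ends and 928 (2.82%) of all starts. The TEAD letters were found at 12.0%, against 8.86% at gene ends and 12.6% of all starts. CAGCTG was found at 40 (12.0%), against 298 (10.2%) at gene ends and 4271 of all 32851 starts. The median GC content was 63.2%, against 64.8% at gene ends and 52.4% over all starts, and GC content by itself changes how often such letters occur. The sequence of the other regions was not analysed here.

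Nkx2-5 is the homeobox factor of the early heart. Its region at a listed start 3.42 kb into the span was mm10 chr17:26841001-26842000. The scaled counts there were 359, 415, 423 and 444 in the Tbx5G125R animals, against 254, 229, 245 and 259 in the Control animals. The groups did not overlap, and the log2 fold change was 0.73 ± 0.10 (standard error, n = 4 animals per group, as for all fold changes below). The start in Hdac4, a class II histone deacetylase that represses Mef2, had 672, 690, 778 and 869 in Tbx5G125R, against 392, 426, 389 and 438 in Control, which is a log2 fold change of 0.88 ± 0.09. The start in Kcnh2, the channel of the rapid delayed rectifier current, had 524, 576, 544 and 562 in Tbx5G125R, against 318, 307, 354 and 405 in Control. Mb encodes myoglobin. At the region over its listed start, the counts were 421, 449, 458 and 501 in Tbx5G125R, against 239, 307, 283 and 243 in Control. Each Tbx5G125R animal lay above each Control animal at all of these regions. That was so for 92.0% of all 2771 regions and 83.4% of all listed regions.

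Over the 2771 regions, the log2 fold change had a median of 0.76, or 1.70-fold, with a middle range of 0.64 to 0.92 and a full range of 0.36 to 1.32. Their median level was 157 in Tbx5G125R and 93.0 in Control. A log2 fold change above 1 was reached by 443 regions (16.0%). In 2548 regions (92.0%) the lowest Tbx5G125R animal lay above the highest Control animal, which was so for 83.4% of all listed regions. The edgeR quasi-likelihood test with Benjamini-Hochberg adjustment put all 2771 at an adjusted p under 0.05 in the higher direction, as it did 88.4% of all listed regions. Both shares follow from the way the regions were chosen. With the median of the table as the scale, the same test called 63 of the 2771 regions higher (2.27%), against 8.55% of all listed regions.

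On the authors' scale, the spread between animals was small beside the difference, which follows from the way the regions were chosen. The SD of the log2 level between animals had a median of 0.18 in Tbx5G125R and 0.21 in Control. Each animal was the lowest of its group in 17.1% to 28.6% of the regions in Tbx5G125R and in 17.0% to 30.6% in Control, and no animal was the lowest throughout. The 223 regions (8.05%) whose animals overlapped had a median level of 79.1 in Tbx5G125R and 43.1 in Control. Leaving out Control animal 2, which had the fewest reads, separated 96 of these 223. Leaving out Tbx5G125R animal 1, the shallowest of its group, separated 78, and the other animals separated between 15 and 74 each.

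**Figure D1:**
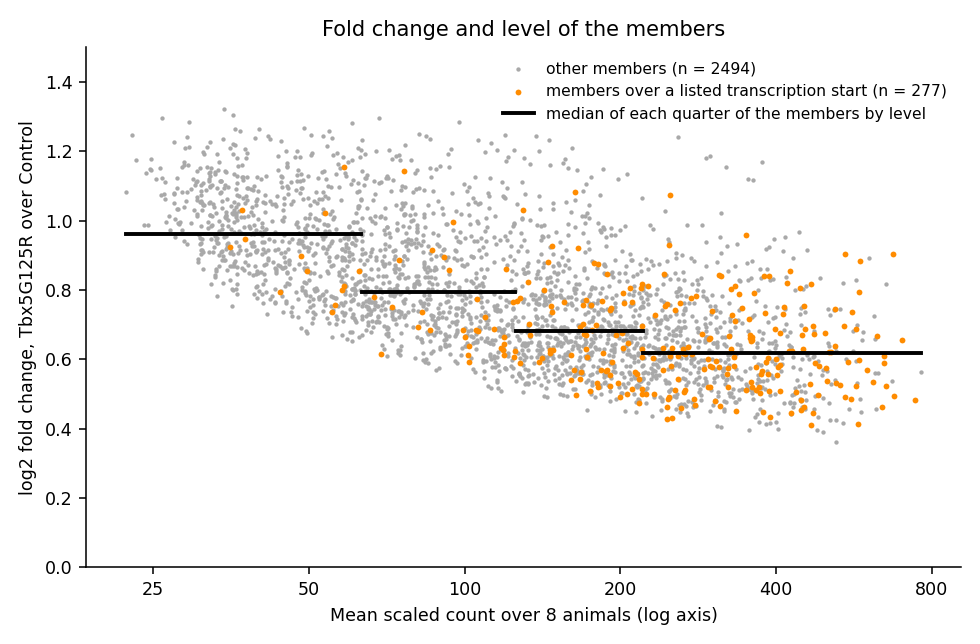
Log2 fold change (Tbx5G125R over Control) of each of the 2771 regions against its mean scaled count over the 8 animals, on a log axis. Orange points are the 277 regions over a listed transcription start, and black lines are the medians of 4 equal groups by level, 0.96 in the group of lowest level and 0.62 in that of highest level.

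Fold change and level were tied together. When the regions were put in 4 equal groups by level, the lowest group held those between 22.2 and 63.2 scaled counts, with a median log2 fold change of 0.96 and a smallest of 0.65. In the group of highest level, between 222 and 763, the median was 0.62 and the smallest 0.36. The table lists only regions past a threshold on the adjusted p, which a region of few reads passes only at a larger fold change, and the plot of fold change against level shows this floor. Fold changes are therefore also given at a matched level. The 277 regions over a listed start had a median of 0.63 at 307 scaled counts in Tbx5G125R and 205 in Control, and the 2277 regions over 1 kb from any listed start had 0.78 at 141 in Tbx5G125R and 82.2 in Control. Among regions with a mean level between 200 and 400, the medians were 0.61 over listed starts (114 regions) and 0.64 away from them (480 regions), so that most of the gap was gone at a matched level.

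In moderately gained regions at gene ends (3246 regions), the median log2 fold change was 0.62 at 220 scaled counts in Control, and intergenic ones (1884 regions) had 0.79 at 84.1. Between 200 and 400 scaled counts, the medians were 0.63 inside gene bodies, 0.60 at gene ends and 0.67 in intergenic chromatin. Strongly gained regions in gene bodies (457 regions, ratio of 3 or more) had a Control level of 22.4, and the 689 lost regions in gene bodies one of 49.5, both lower than the 93.0 of the regions here. These values are descriptions of classes cut on the same contrast.

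A listed transcription start was overlapped by 10.4% of the 2664 regions on chromosomes with listed starts, by 4.86% of the intergenic gained regions, by 1.57% of the strongly gained regions in gene bodies, and by 0.60% of the lost ones. Intergenic regions lie outside every protein-coding gene by definition, and the start was that of a long noncoding gene in all 88 of them. That was so in 36 of the 277 regions here, so the contrast with the intergenic regions follows in part from how the classes were cut. The 107 regions on chromosome 18 were not covered by the list of starts.

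The regions were narrow. Their median width was 750 bp, and 908 of them (32.8%) were single bins of 500 bp. Their median level grew with width up to about 1 kb, from 72.4 scaled counts at 500 bp to 123 at 750 bp and 176 at 1000 bp, and then levelled off at 203 at 1250 bp, 210 at 1500 bp and 199 at 1750 bp. The table gives a 500 bp bin for each region, and the counts may be those of this bin and not of the whole region.

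Inside the gene the regions lay at every depth. The median distance to the nearer end of the gene was 16.7 kb, against 24.5 kb for the strongly gained and 28.5 kb for the lost regions of gene bodies. A distance in kb also depends on the length of the host genes. As a share of the span from the start, where the strand was known, the medians were close, at 46.1%, 49.1% and 47.0%. For the 2146 regions in genes whose strand was known, 5 equal parts of the span, counted from the start, held 490, 462, 430, 424 and 340 regions. Regions between 1 and 2 kb from an end had a median of 240 scaled counts in Tbx5G125R and 149 in Control, with a median log2 fold change of 0.69. Those over 20 kb away had 134 in Tbx5G125R and 75.6 in Control, with 0.79. The fold change again ran opposite to the level.

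The 2771 regions lay in 1713 genes, which is 7.83% of the 21883 protein-coding genes of the annotation. A single region was found in 1169 of these genes, and 249 genes held 3 or more, together 1012 regions (36.5%). Host genes were long, with a median span of 72.6 kb against 17.2 kb for all genes, and 368 of the 989 genes over 200 kb (37.2%) were hosts. A longer gene has more room for a region, and the counts per gene were not corrected for length. Neighbouring regions of the same gene were 8.00 kb apart at the median, and 453 of 1058 such gaps (42.8%) were within 5 kb. Of the hosts, 190 also held a strongly gained region, 395 a gained region at an end, and 120 a lost region in the body.

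Rbm20, which encodes a splicing factor of titin and other heart transcripts, held 12 regions. The region near its higher-numbered end (chr19:53843501-53844750) had 235, 185, 209 and 219 in Tbx5G125R, against 83.1, 86.6, 101 and 139 in Control. Its log2 fold change was 1.05 ± 0.15, and Control animal 4 stood highest in its group. The 3 most accessible regions of the gene averaged 657, 613 and 554 in Tbx5G125R, against 436, 396 and 334 in Control. Their log2 fold changes of 0.60, 0.65 and 0.73 were smaller than that of the end region, at a higher level.

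Plekha7, a component of adherens junctions, held 11 regions with log2 fold changes of 0.62 to 1.09. The region at chr7:116193501-116194750 had 107, 117, 98.8 and 122 in Tbx5G125R, against 52.7, 37.4, 64.3 and 44.7 in Control. Nav2, which encodes a neuron navigator protein, held 10 regions, among them one of 6000 bp, the widest of all. That region had 351, 491, 494 and 420 in Tbx5G125R, against 185, 206, 189 and 221 in Control, and a log2 fold change of 1.15 ± 0.11. The animals did not overlap at these 2 regions, which were picked for the largest fold change of each gene. Animals did not overlap in 10 of the 11 regions of Plekha7 and 9 of the 10 of Nav2. The share was 92.0% of all 2771 regions and 83.4% of all listed regions.

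Chrm2, the muscarinic receptor through which vagal nerves slow the heart, held 8 regions from 3.88 to 136 kb beyond its start. The last of them (chr6:36523251-36524250) had 133, 137, 155 and 146 in Tbx5G125R, against 80.7, 60.8, 75.6 and 71.5 in Control, with a log2 fold change of 0.95 ± 0.15. Further genes with 8 or more regions were Tmem108 and Nrg2 with 10 each, Phactr1 with 9, and Gse1, Mbp, Nfia and Trak1 with 8 each. Nrg2 is a ligand of the neuregulin family, Nfia a transcription factor, and Trak1 an adaptor that carries mitochondria along microtubules. Their median log2 fold changes lay between 0.63 in Trak1 and 0.92 in Phactr1. Phactr1, a regulator of actin and protein phosphatase 1, also held 5 strongly gained regions.

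**Figure D2:**
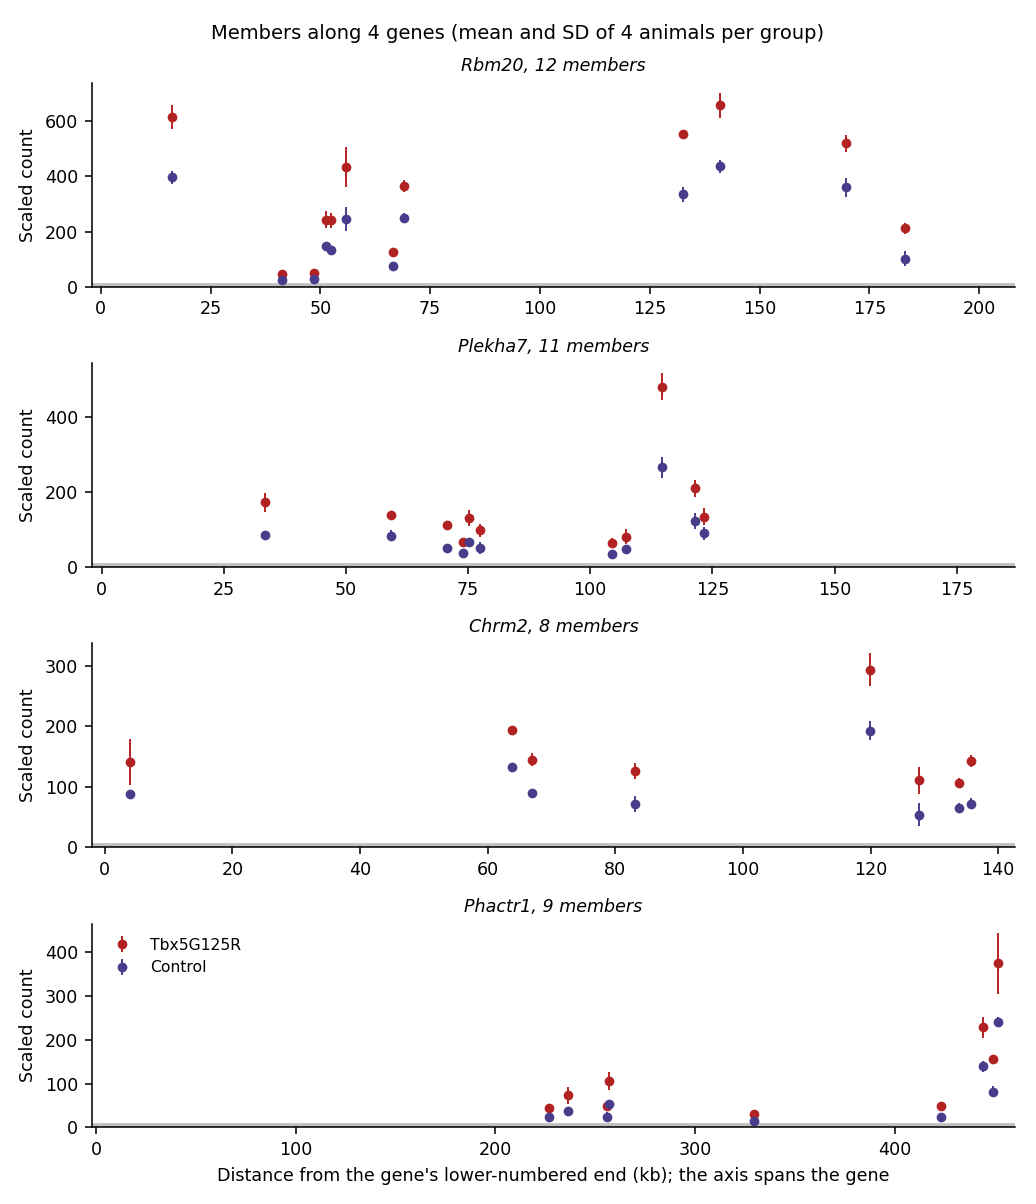
Scaled counts of the regions along Rbm20, Plekha7, Chrm2 and Phactr1, plotted by distance in kb from the lower-numbered end of the gene. Points and bars are the mean and SD of 4 animals, red for Tbx5G125R and dark blue for Control, and the Tbx5G125R mean is the higher at every region.

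**Figure D3:**
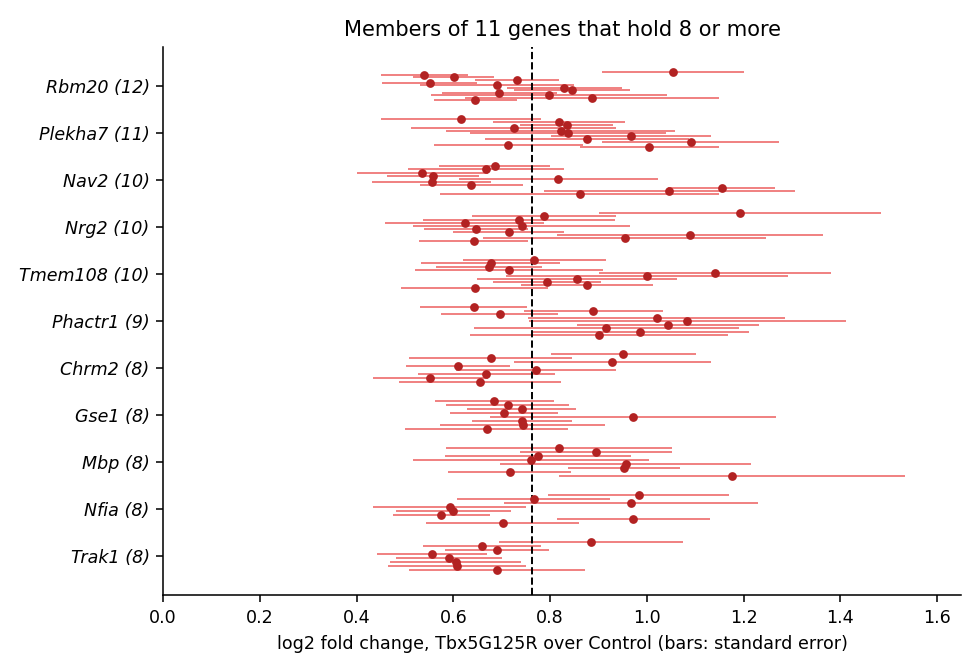
Log2 fold change with its standard error for each region of 11 genes that hold 8 or more, stacked within a gene in order of position. The dashed line is the median of all 2771 regions, 0.76, and the points of most genes lie on both sides of it.

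Among genes with 4 or more of the regions, they were densest relative to span in Slc4a3, an anion exchanger, with 4 regions in 13.4 kb, and in Itm2b, a membrane protein of the BRICHOS family, with 6 in 23.1 kb. The 6 regions of Itm2b were of low level, 32.3 to 76.9 scaled counts, and had a median log2 fold change of 0.91. Myh6 held 5 regions in 26.1 kb and Mb 6 in 35.2 kb. In Mb, 5 of the 6 regions had log2 fold changes of 0.75 to 0.79, while the mean level in Tbx5G125R ran from 54.2 to 457. Their standard errors were 0.10 to 0.24, wider than this range, and the 5 were grouped after their values were seen. The 6th, the most accessible, had 0.50 ± 0.09, with 562 in Tbx5G125R and 404 in Control.

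Among sarcomere and Z-disc genes, which build the contractile apparatus, 18 of 40 genes held 51 regions, with a median log2 fold change of 0.76, the same as over all 2771 regions. For 50 of these 51 the animals did not overlap, beside 92.0% of all 2771 regions and 83.4% of all listed regions. Myh6, the alpha myosin heavy chain of the atrium, had 635, 508, 702 and 507 in Tbx5G125R, against 277, 239, 325 and 345 in Control, at chr14:54964501-54966500. The fold change there was 0.97 ± 0.11 on the log2 scale. In Ttn, which encodes titin, the region at chr2:76806001-76808000 had 403, 436, 450 and 464 in Tbx5G125R, against 239, 267, 198 and 234 in Control. In Palld, an actin cross-linking gene, the region at chr8:61748001-61749000 had 108, 104, 106 and 90.1 in Tbx5G125R, against 43.9, 46.8, 51.4 and 54.9 in Control. The same list held 27 lost regions in gene bodies, 11 of them in Pdlim5, which held none of the regions described here.

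**Figure D4:**
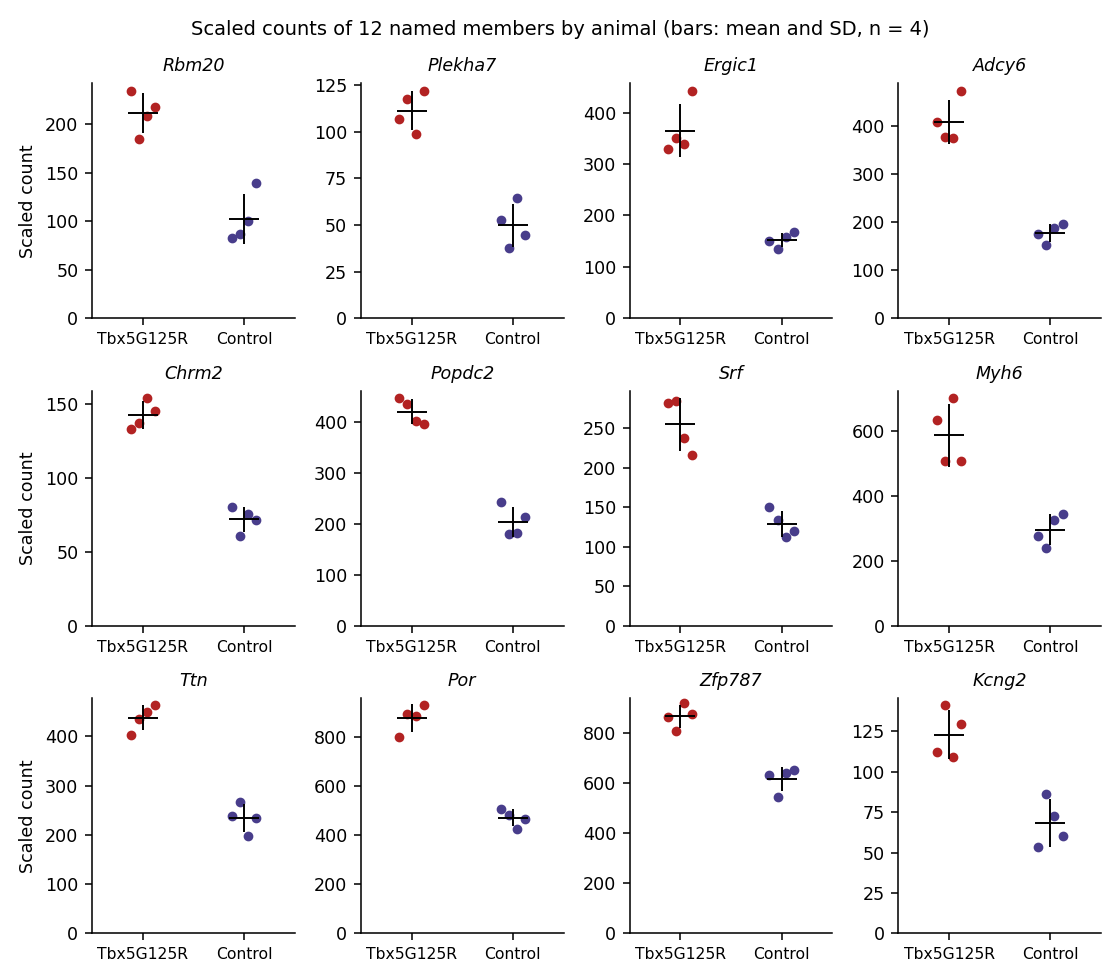
Scaled counts of 12 named regions in each animal, with mean and SD (n = 4 animals per group), Tbx5G125R on the left and Control on the right of each panel. No Control animal reaches the lowest Tbx5G125R animal in any of the 12 panels, as in Ttn, where the lowest Tbx5G125R animal has 403 and the highest Control animal 267. Many named regions were picked among those with non-overlapping animals, so this follows in part from the choice. The share without overlap was 92.0% of all 2771 regions and 83.4% of all listed regions.

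Calcium handling genes differed from the sarcomere genes in their balance. They held 15 regions in 12 of 34 genes, with a median log2 fold change of 0.66, against 68 lost regions in gene bodies. The lost ones lay mainly in Slc8a1 with 24 and Cacna1c with 13. Ryr2, the calcium release channel of the sarcoplasmic reticulum, held 3 of the gained regions and 10 lost ones. The gained regions of Ryr2 averaged 245, 330 and 283 in Tbx5G125R and 150, 218 and 183 in Control. Sln, the sarcolipin gene of the atrium, averaged 286 ± 27.5 in Tbx5G125R and 166 ± 12.0 in Control at its region. Atp2a2, the calcium pump it inhibits, averaged 267 ± 21.4 in Tbx5G125R and 156 ± 9.11 in Control. In Cacna2d1, a calcium channel subunit gene, the region at chr5:16047001-16047750 had 73.1, 71.6, 73.6 and 72.8 in Tbx5G125R, against 47.4, 23.4, 39.1 and 29.4 in Control, from few reads in Control animal 2. Cacna2d3 had 57.4, 53.4, 42.9 and 36.4 in Tbx5G125R, against 30.4, 21.1, 27.8 and 21.7 in Control.

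Potassium channel genes held 27 regions in 11 of 32 genes, with a median log2 fold change of 0.67 and 1 lost region. Abcc8, the sulfonylurea receptor of KATP channels, Kcnd3, which carries transient outward current, and Kcnq1, which carries the slow delayed rectifier current, held 4 each. In Kcng2, a silent potassium channel subunit gene, the region at chr18:80329001-80329750 had 112, 141, 109 and 129 in Tbx5G125R, against 53.2, 86.6, 73.0 and 60.0 in Control. Kcnc1 had 48.3, 42.9, 40.1 and 54.6 in Tbx5G125R, against 18.0 to 27.5 in Control. The lone region of Kcnj5, a subunit of the acetylcholine-activated channel, had a small log2 fold change of 0.46 ± 0.08 at a high level, 720 in Tbx5G125R and 528 in Control.

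Sodium, chloride and pacemaker channel genes held 15 regions in 12 of 31 genes, with a median of 0.70, beside 10 lost regions, of which 9 were in Fgf12, a modulator of sodium channels that also held a gained region. Scn4a, a sodium channel gene, had 147, 169, 117 and 146 in Tbx5G125R, against 81.9, 72.6, 69.9 and 75.4 in Control. Hcn2 and Hcn4, which carry the pacemaker current, held 2 and 1 of these regions, with 0.62 to 0.79.

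Heart transcription factor genes held 31 regions in 15 of 37 genes, with a median of 0.74, beside 20 lost regions, of which 17 were in Zbtb16. Tbx5 itself held 4 regions with averages of 137, 188, 383 and 277 in Tbx5G125R, against 88.5, 102, 226 and 182 in Control. Tead1, which binds with YAP, held 5 regions with 0.65 to 0.93. Srf, the factor that drives muscle genes through serum response elements, had 282, 284, 238 and 216 in Tbx5G125R, against 150, 133, 113 and 120 in Control, at chr17:46551001-46552000. Gata4 held a region with 375 in Tbx5G125R and 239 in Control. Mef2c had its weaker region away from the start, with 55.5 in Tbx5G125R and 26.5 in Control, a log2 fold change of 0.97 ± 0.25.

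Genes of cyclic nucleotide, kinase and calcineurin signalling held 49 regions in 21 of 36 genes, with a median of 0.75, beside 16 lost regions. Adcy6, an adenylyl cyclase that makes cAMP in the heart, had 410, 377, 375 and 474 in Tbx5G125R, against 175, 152, 189 and 195 in Control, at chr15:98601001-98605000. This was the largest fold change of the list, 1.18 ± 0.11. Adcy5 held 5 regions with 0.45 to 0.88. Prkca, protein kinase C alpha, had 58.7, 65.8, 39.1 and 40.3 in Tbx5G125R, against 20.5, 21.1, 20.6 and 33.2 in Control.

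Junction and cytolinker genes held 24 regions in 11 of 31 genes with a median of 0.66, beside 12 lost and 5 strongly gained ones. Popdc2, a cAMP-binding membrane protein of the Popeye family, had 449, 435, 404 and 397 in Tbx5G125R, against 243, 180, 182 and 213 in Control, at chr16:38370501-38371500. Sgcd, a dystrophin complex gene, had 33.9, 57.3, 44.7 and 36.4 in Tbx5G125R, against 17.0, 7.02, 28.3 and 23.0 in Control, from few reads in Control animal 2. Gja5, the atrial connexin gene, held a low region with 64.3 in Tbx5G125R and 38.0 in Control.

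The metabolic list held 25 regions in 10 of 32 genes, with a median of 0.76, beside 5 lost regions. Ppargc1a, a coactivator of mitochondrial genes, held 6 of them, and 3 neighbours within 4.50 kb had 0.80 to 0.94. At chr5:52023001-52023750 the counts were 110, 95.4, 188 and 127 in Tbx5G125R, against 63.8, 60.8, 86.9 and 52.4 in Control, and Tbx5G125R animal 3 stood highest. Pparg, the nuclear receptor that directs fat storage genes, had 97.8, 108, 88.5 and 108 in Tbx5G125R, against 46.2, 49.1, 72.5 and 52.4 in Control. Splicing genes held 22 regions in 8 of 19 genes, 12 of them in Rbm20, beside 9 lost regions. Celf2, another splicing regulator, had 84.8, 80.2, 61.5 and 71.9 in Tbx5G125R, against 39.8, 32.8, 33.4 and 28.1 in Control. Chromatin genes held 25 regions in 12 of 26 genes with a median of 0.78, 6 of them in Hdac4, beside 1 lost region. Smarca4, the motor of the BAF remodelling complex, had 140, 118, 78.3 and 80.5 in Tbx5G125R, against 64.4, 44.5, 51.9 and 31.9 in Control. Arid1a, a subunit of the same complex, had 188, 247, 234 and 286 in Tbx5G125R, against 91.3, 143, 127 and 134 in Control.

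**Figure D5:**
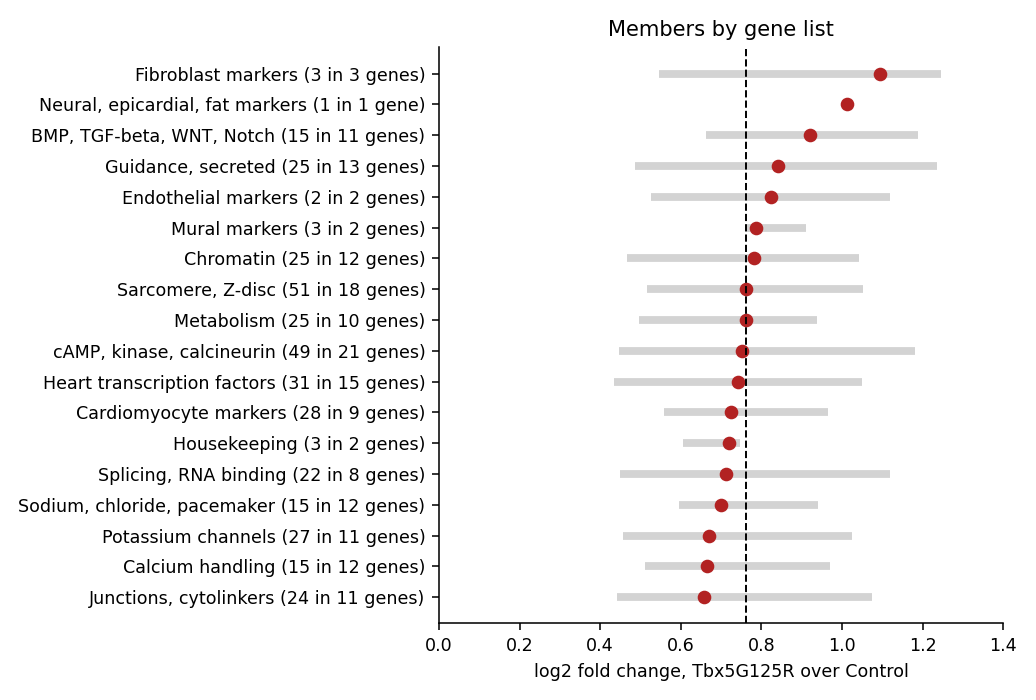
Median (red point) and full range (grey bar) of the log2 fold change of the regions in each gene list, with the number of regions and genes in brackets. The dashed line is the median of all 2771 regions, 0.76, and list medians of 15 or more regions run from 0.66 in junction genes to 0.92 in the BMP, TGF-beta, WNT and Notch genes.

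The highest median of a list with 15 or more regions was that of BMP, TGF-beta, WNT and Notch genes, 0.92 over 15 regions in 11 of 40 genes, with 0 lost regions in gene bodies. The level of these regions was low, with a median of 39.1 in Control, and low regions had large fold changes throughout. Bmpr1b, a BMP receptor gene, had 80.9, 103, 129 and 96.8 in Tbx5G125R, against 36.3, 37.4, 47.8 and 58.8 in Control. Smad3, which carries TGF-beta signals to the nucleus, had 93.9, 128, 59.6 and 52.7 in Tbx5G125R, against 41.0, 28.1, 39.1 and 34.5 in Control, with a wide spread in Tbx5G125R. Guidance and secreted factor genes held 25 regions in 13 of 29 genes, at 0.84 and a median of 47.1 in Control, beside 9 lost and 11 strongly gained regions. Sema6d, a semaphorin, had 74.4, 112, 99.7 and 131 in Tbx5G125R, against 36.9, 46.8, 59.6 and 38.3 in Control, and Padi2, which converts arginine to citrulline in proteins, had 40.4, 32.4, 51.3 and 36.4 in Tbx5G125R, against 15.8, 14.0, 21.6 and 17.9 in Control.

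The marker lists do not show which cells the nuclei came from, since the regions were chosen on the genotype contrast and the table lists no unchanged region. The summed levels below also grow with the number of regions in a list. Cardiomyocyte markers held 28 regions in 9 of 15 genes, with summed levels of 8046 to 9336 in Tbx5G125R and 4971 to 5231 in Control. Fibroblast markers held 3 regions in 3 of 17 genes, Ddr2, Fbn1 and Fbln1, with sums of 395 to 465 in Tbx5G125R and 204 to 279 in Control. Endothelial markers held 2 in 2 of 16 genes, Kdr and Pecam1, with sums of 503 to 568 in Tbx5G125R and 255 to 355 in Control. Mural markers held 3 in 2 of 11 genes, Cspg4 and Myh11, with sums of 334 to 402 in Tbx5G125R and 192 to 262 in Control. Th, of the neural, epicardial and fat list, held 1, with 151 to 282 in Tbx5G125R and 101 to 126 in Control. Leukocyte markers held 0 in 14 genes. Col1a1, Dcn, Cdh5 and Ptprc held none of these regions, and neither did the cardiomyocyte markers Myl7, Nppa, Tnni3, Mybpc3, Pln and Bmp10. Strongly gained regions in gene bodies numbered 3 in fibroblast, 1 in endothelial and 1 in leukocyte markers, and 0 in the other marker lists, cardiomyocyte markers included. Lost ones numbered 10 in cardiomyocyte and 3 in endothelial markers, and 0 in the others. Moderately gained regions at gene ends numbered 14 in cardiomyocyte markers and 0 in the other marker lists. The median log2 fold change of the regions here was 0.72 in cardiomyocyte, 1.09 in fibroblast, 0.82 in endothelial and 0.79 in mural markers, and 1.01 in Th. The part of other cell types in these regions was not tested. Of housekeeping genes, Actb held 1 region and Ywhaz 2, with 0.60 to 0.75.

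Among regions at or above the median level with non-overlapping animals, Ddr2, a collagen receptor gene, had the largest fold change, 1.25 ± 0.16 on the log2 scale. Its counts were 153, 205, 204 and 202 in Tbx5G125R, against 81.3, 117, 74.0 and 65.2 in Control, so that Tbx5G125R animal 1 stood low. Ergic1, a protein that cycles between the endoplasmic reticulum and the Golgi apparatus, followed with 329, 350, 338 and 442 in Tbx5G125R, against 150, 136, 159 and 167 in Control, a log2 fold change of 1.24 ± 0.11. Cracr2a, which regulates store-operated calcium channels in T cells, had 535, 512, 581 and 449 in Tbx5G125R, against 202, 227, 224 and 280 in Control. Mad1l1, Rhbdd1, Cdkal1, Adcy6, Gm38667 and Anapc7 had regions with 1.18 to 1.23. Kdr, the VEGF receptor, belonged to a lower rank at 1.12 ± 0.15.

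At the top of the scale by level stood Mpp7, a scaffold of cell junctions, Zfp787, a zinc finger gene, Sertad2, Itprid2 and Por, the reductase that passes electrons to cytochrome P450. Por had 798, 892, 885 and 932 in Tbx5G125R, against 508, 484, 426 and 465 in Control, and a log2 fold change of 0.90 ± 0.08, the largest of these 5. Zfp787 had 864, 808, 919 and 873 in Tbx5G125R, against 631, 543, 638 and 652 in Control, with 0.48 ± 0.08. Mpp7 averaged 903 ± 74.9 in Tbx5G125R and 622 ± 127 in Control, where animal 2 alone had 812.

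The limits of the rule can be seen at its edges. Cd82, Sh3rf2 and Nrg2 lay just below a ratio of 3, at 2.996, 2.996 and 2.995, and Neurl1a, Hmcn1 and Scel just above it, at 3.002, 3.004 and 3.005. The regions on both sides were alike in fold change, with 1.19 to 1.30 below the limit and 1.07 to 1.28 above it. At the lower limit there was no such neighbourhood. The lowest ratio above 1 was 1.60 in Frmd5, followed by 1.63 in Slc39a10 and 1.64 in Kifap3. The highest below 1 was 0.844 in Exoc4, with no listed region between. These ratios are of raw counts and include differences in depth. On scaled counts, the log2 fold change of Frmd5 was 0.36 ± 0.09. Frmd5 averaged 585 ± 46.0 in Tbx5G125R and 458 ± 33.5 in Control, and Exoc4 averaged 286 ± 60.0 in Tbx5G125R and 425 ± 41.9 in Control.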

How the data were processed

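Chromatin accessibility was measured by ATAC-seq in PCM1-sorted atrial nuclei. The submitters' processing notes name BWA, bedtools, DESeq2 and mm10, and whether reads were shifted, deduplicated or filtered is not stated in the sources at hand. The authors deposited raw counts per region and library for regions built from bins of 500 bp. They wrote 26 counts of 0 as 0.1, so that the deposited columns are estimated counts in form only, and these were set to 0. The deposited geometric mean signal per genotype gave the ratio that chose the regions. The authors' deposited log2 fold change (Control over Tbx5G125R) and adjusted p-value, all under 0.05, are their own comparison, and only the fold change was used, to place the scale. PCR copies are not independent molecules.

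Where a Control animal had 2 libraries (animals 1 and 3), their counts were added. Libraries of the same animal differed by a chi-square per degree of freedom of 1.62 to 1.67, and libraries of different animals by 2.01 to 4.29. Libraries were scaled within a genotype by median ratios, and the genotypes were set apart by the offset that best matched the deposited fold changes, 0.32 on the log2 scale (1.25-fold, residual SD 0.021). Fold changes came from edgeR 4.0.16 (quasi-likelihood, 4 against 4 animals, R 4.3.3, biological coefficient of variation 11.5%), with Benjamini-Hochberg adjustment over 10010 regions. The code was tested on simulated data. Since the scale leans on the authors' values, calls made with it do not stand apart from theirs. Genes are RefSeq, GRCm38.p6, with a region given to the gene whose span it overlaps.

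The regions and the gene lists were chosen with earlier results of these data known. Named regions were those of largest fold change in the 12 genes with most regions, the 10 of largest fold change with non-overlapping animals and a level at or above the median, the 5 of highest level, up to 2 for each gene list, and 3 on each side of each limit. A few results that the rule names are not reported here. Genes given by counts or averages alone, and the sequences shown, were chosen after their values were seen. Alternatives covered the tool (limma 3.58.1, DESeq2 1.42.0), pseudocounts, scaling, a count filter, repeats, the replicate block, single animals and the rule itself.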

Additional observations from a re-analysis of the deposited data

Results flagged for a closer look

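Among 142 groups of 4 values looked at (the 69 named regions in both groups, and the reads and shares of each animal), 7 held an animal far from the other 3 by Dixon's test, about the number that chance gives at 1 in 20. Tbx5G125R animal 1 had 428747 reads in the gained gene-body regions, against 575681 to 593208 in the other Tbx5G125R animals. The same animal was low in Ddr2, with 153 scaled counts against 202 to 205, and high in Frmd5, with 654 against 558 to 570. Tbx5G125R animal 2 was high in Cd82, with 67.8 against 48.3 to 50.3, and Tbx5G125R animal 4 was low in Slc39a10, with 474 against 565 to 572. Control animal 2, the shallowest of all, was high in Mpp7, with 812 against 556 to 563. Control animal 4 was high in Prkca, with 33.2 against 20.5 to 21.1.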

How the results depend on the processing

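The scale between the genotypes decided the results. With the median of the table as the scale, the median log2 fold change of the regions was 0.10, 63 were called higher (2.27%, against 8.55% of all listed regions) and 95 had non-overlapping animals. With TMM over the listed regions these were 0.083, 47 and 82. These scales put the middle of the listed regions near 0 by construction. The listed regions are only those called different, and the sites of similar accessibility that the study reports are not among them. Since the depth of whole libraries and the counts at those sites are unknown, which scale is right cannot be told from these data. Without any scaling the median was 1.13, and with a pseudocount of 5 in limma it was 0.72. Under the table median, the fold change turned negative in Mpp7 (-0.10), Zfp787 (-0.18), Sertad2 (-0.011), Itprid2 (-0.17), Pecam1 (-0.14), Frmd5 (-0.30), Slc39a10 (-0.27) and Kifap3 (-0.25), and in the medians of calcium handling (-0.00073) and junction genes (-0.0064). Under TMM it was -0.11 in Mpp7, -0.20 in Zfp787, -0.025 in Sertad2, -0.18 in Itprid2, -0.15 in Pecam1, -0.32 in Frmd5, -0.28 in Slc39a10 and -0.27 in Kifap3, with -0.015 for calcium handling, -0.0097 for potassium channel and -0.021 for junction genes. Frmd5, Slc39a10 and Kifap3 were then called lower by edgeR, with adjusted p of 0.0081, 0.023 and 0.034 under the table median and 0.0051, 0.015 and 0.023 under TMM, while the other 5 were not called. Of 1380 values for 69 named regions over the alternatives, 1275 kept direction and side of the threshold, 89 fell below it and 16 reversed.

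A ratio limit of 2 left 934 regions with a median of 0.59, and regions at any distance inside a gene span numbered 5782 with 0.68. Leaving out single animals gave medians of 0.74 to 0.77, 2767 to 2771 calls and 2563 to 2644 regions with non-overlapping animals. Animals with the same replicate number did not deviate together in every pair (r from -0.0008 to 0.17), so the numbers were not taken as pairs. With a replicate block the median was 0.76 with 2771 calls. DESeq2, the other limma settings, the filter and the first libraries alone also called all 2771. All the settings in this paragraph from the single animals on kept the same offset between the genotypes. Their calls and counts of non-overlapping animals follow from the way the regions were chosen. Control animal 2 had the fewest reads, 148598 in these regions.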
